A study of Mus musculus with 40 samples.

Results

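Gene expression was compared between mouse lungs given an adenovirus that carries mouse TGFβ1 and lungs given the same kind of virus with no insert, in animals that received no active drug. The comparison rests on 10 of the 40 lung RNA libraries of the series, chosen by their labels: 5 from C57BL/6 mice given the TGFβ1 adenovirus (Ad-TGFβ1) and gavaged with vehicle, and 5 from C57BL/6 mice given empty vector and gavaged with vehicle. The virus was given through the nose and drives TGFβ1 from the cytomegalovirus promoter, which is not specific to any lung cell type. Vehicle was given daily from day 10 to day 27, the lungs were taken on day 28, and the labels give 18 days after the start of these treatments. RNA came from the left lung and was sequenced after ribosomal RNA depletion. Beside these stand 5 Ad-TGFβ1 and 5 empty vector lungs from mice gavaged with the Src kinase inhibitor saracatinib at 20 mg/kg. A second model of lung injury gave 5 lungs after bleomycin and 5 after saline, both with vehicle. Each library is numbered from 1 to 5 within its group.

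TGFβ is a secreted growth factor that is held in the matrix in a latent complex and is released by integrins and proteases. It signals through a pair of receptor kinases to SMAD transcription factors, which switch on matrix genes in fibroblasts and also restrain T cells and epithelial growth. In the lung it is known as a main driver of fibrosis.

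The 10 libraries held 10307564 to 17256245 gene counts in Ad-TGFβ1 lungs and 9289156 to 12525081 in empty vector lungs. All 10 had markers of alveolar and airway epithelium, endothelium, fibroblasts and leukocytes, and all 10 had Y-linked transcripts with almost no Xist. Heart muscle genes varied widely within both groups, with Myh6 at 126 to 555 CPM (counts-per-million, scaled by library size) in Ad-TGFβ1 lungs and 30.4 to 951 CPM in empty vector lungs. Empty vector library 1 stood apart from its group. On the first principal component, which carried 42% of the variance, the Ad-TGFβ1 libraries lay between -40.6 and -17.0, empty vector library 1 lay at -19.1, and the other empty vector libraries lay at 28.4 to 67.2, with library 5 farthest out. In the comparison of the vehicle lungs, counts of gene lists that moved by over 1.5 times without library 1 or library 5 are also given without it. Most changes of such a count between 0 and 1 are not listed. Because these are whole lung pieces, fewer cells of a type and less RNA per cell cannot be told apart.

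Of 18834 genes tested, 4865 (25.8%) differed between Ad-TGFβ1 and empty vector lungs at an adjusted p of 0.05 (edgeR's quasi-likelihood test, Benjamini-Hochberg adjustment). Higher in Ad-TGFβ1 lungs were 2173 genes (11.5%), and lower were 2692 (14.3%). The 5 values of the 2 groups did not overlap in 1669 genes (8.86%). Most changes were small: 260 of the higher genes and 738 of the lower genes reached a fold change of 2, and 32 and 13 reached a fold change of 4. The median log2 fold change over all genes tested was -0.01. Without empty vector libraries 1 and 5, a choice made after seeing the data, 2838 genes (14.8%) were higher and 3067 (16%) lower. These shares are the background against which the counts of each gene group below are read. The background itself moved when single libraries were left out. The higher genes then ranged from 1357 (without Ad-TGFβ1 library 1) to 3448 (without empty vector library 1). The lower genes ranged from 1860 (without empty vector library 5) to 3679 (without empty vector library 1). A list count without 1 library is to be read beside these.

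Tgfb1, the gene the virus carries (chr7:25687002-25705077 on the plus strand of GRCm38), had 252, 280, 223, 140 and 224 CPM in the 5 Ad-TGFβ1 lungs, against 81.2, 69.5, 69.6, 61.6 and 61.1 CPM in the 5 empty vector lungs. Every Ad-TGFβ1 lung lay above every empty vector lung as the labels say, and Ad-TGFβ1 library 4 had the lowest level of its group. The log2 fold change was 1.71 ± 0.15 (SE, n = 5 each, adjusted p = 4.73e-06), a 3.26-fold difference. The counts do not separate reads of the viral insert from reads of the animal's own gene, so these cannot be told apart.

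**Figure D1:**
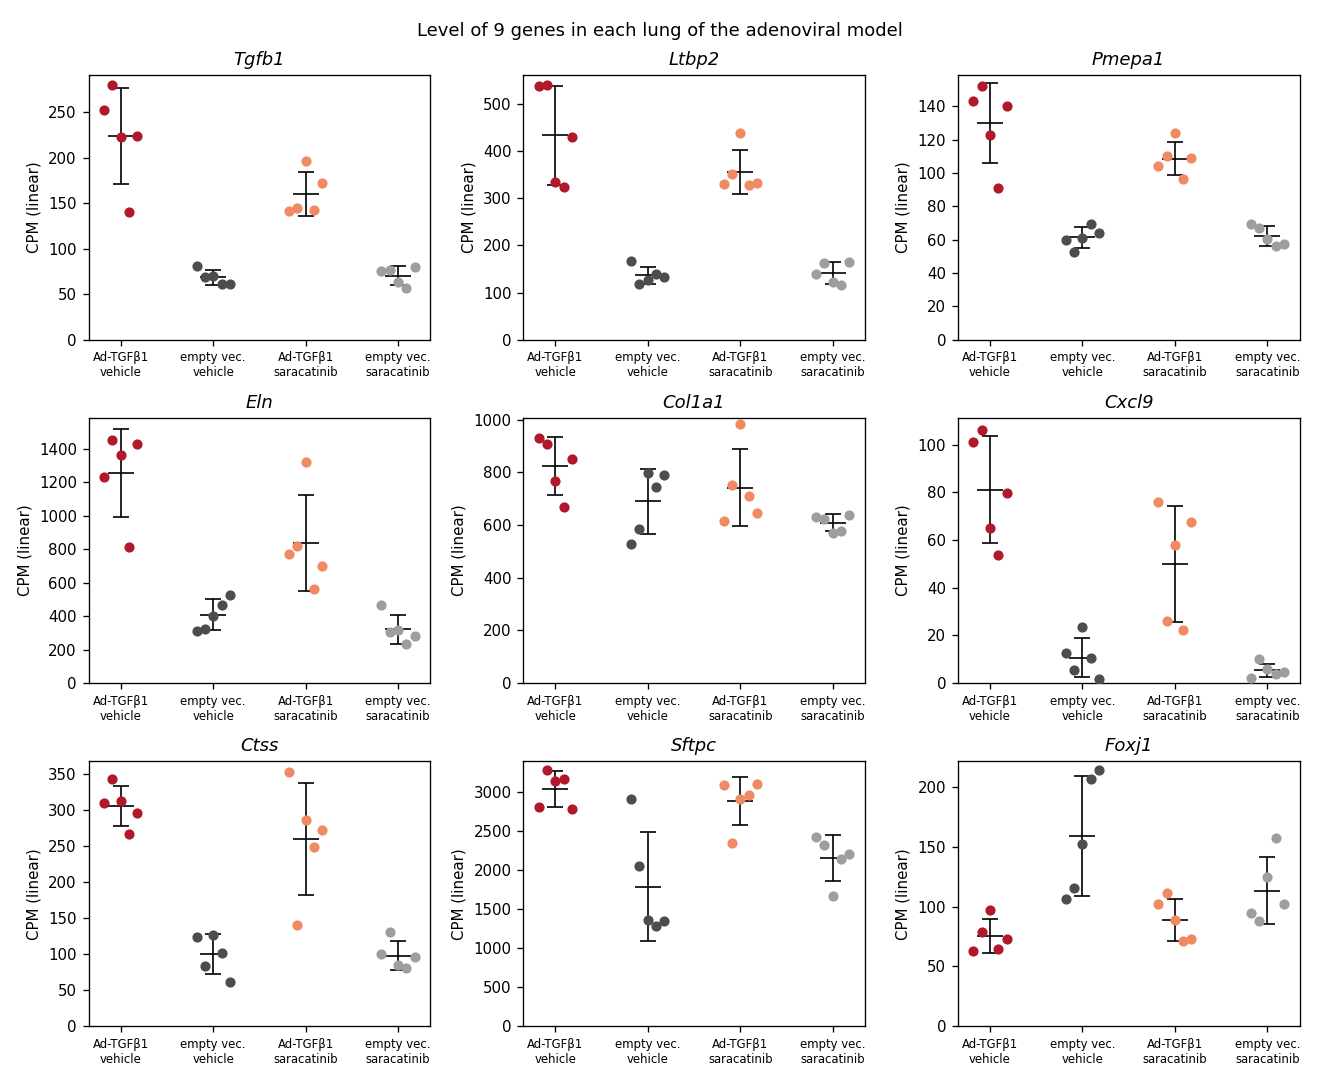
Expression of 9 genes in each lung, in CPM on linear axes that start at 0, with 1 point per library and the group mean ± SD, for Ad-TGFβ1 and empty vector lungs given vehicle and then for those given saracatinib. Tgfb1 averaged 224 ± 52.5 CPM in Ad-TGFβ1 vehicle lungs and 68.6 ± 8.12 CPM in empty vector vehicle lungs, and Foxj1 averaged 75.3 ± 14.0 CPM and 159 ± 50.3 CPM in those groups (SD, n = 5 each).

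Of the 16 tested genes that make, store or activate TGFβ, 9 were higher, Tgfb1 among them, 7 did not pass the test and 0 were lower, with a median log2 fold change of 0.35, and 7 of the 16 did not overlap between the groups. Ltbp2, a latent TGFβ binding protein of elastic fibres, had 537, 540, 335, 324 and 430 CPM in Ad-TGFβ1 lungs, against 166, 119, 126, 140 and 132 CPM in empty vector lungs. Its groups were far apart, and its log2 fold change was 1.67 ± 0.15 (adjusted p = 4.73e-06). Itgb6, the β chain of the epithelial integrin that frees latent TGFβ, had 180, 176, 154, 160 and 173 CPM in Ad-TGFβ1 lungs, against 102, 83.0, 80.1, 55.9 and 62.5 CPM in empty vector lungs. The Itgb6 groups did not overlap either, and the log2 fold change was 1.13 ± 0.14 (adjusted p = 8.57e-05). Tgfb2, a second ligand, rose by a log2 fold change of 0.57 ± 0.076 (adjusted p = 0.00018), and Itgb5, another TGFβ-freeing integrin chain, by 0.52 ± 0.071 (adjusted p = 0.0002).

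Of 18 receptors and SMADs, 3 were higher and 2 lower, with a median log2 fold change of 0.05, and 7 were higher without empty vector library 1. The lower count was 1 without Ad-TGFβ1 library 1, 2 or 5 or empty vector library 2, 3 or 5. Tgfbr1, the type I receptor kinase, had 131 to 149 CPM in Ad-TGFβ1 lungs (median 144) and 88.0 to 116 CPM in empty vector lungs (median 92.2), a log2 fold change of 0.53 ± 0.082 (adjusted p = 0.000556). Tgfbr2, the ligand-binding type II receptor, rose by 0.56 ± 0.082 (adjusted p = 0.000395). Bmpr1b, a receptor for bone morphogenetic proteins, fell by 1.27 on the log2 scale (SE 0.24, adjusted p = 0.00127), with 8.33 to 12.0 CPM in Ad-TGFβ1 lungs and 14.0 to 29.7 CPM in empty vector lungs. The signal-carrying Smad2, Smad3 and Smad4, named after their values were seen, had log2 fold changes of 0.13, 0.03 and -0.06, with adjusted p-values of 0.0873, 0.778 and 0.306.

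Among 22 TGFβ feedback and target genes, 7 were higher and 1 lower, with a median log2 fold change of 0.29, and 12 were higher without empty vector library 1. Pmepa1, a SMAD-induced inhibitor of the pathway, had 143, 152, 123, 91.1 and 140 CPM in Ad-TGFβ1 lungs, against 59.6, 52.8, 60.8, 69.6 and 64.3 CPM in empty vector lungs. Its lowest Ad-TGFβ1 value came from library 4, which was also lowest for Tgfb1, and its log2 fold change was 1.08 ± 0.11 (adjusted p = 1.70e-05). Not every gene was low in library 4, where Postn, given below, was highest, and a link with the level of Tgfb1 was not tested. Tgfbi, a matrix protein named for its induction by TGFβ, rose by 0.84 ± 0.13 (adjusted p = 0.000648), and Ldlrad4, another inhibitor of receptor signalling, by 0.30 ± 0.06 (adjusted p = 0.00173). In 13 of these genes with a promoter window in RefSeq (GRCm38.p6, 250 bases before to 50 after the start), the SMAD box CAGACA was present on either strand in 6, against 23.6% of all genes with a window. The other planned motifs, GTCTAGAC, the AP-1 site and the TATA box, were in 1, 1 and 2 of the 13. Their shares of all genes were 0.248%, 5.95% and 15.7%. The 13 were taken from the whole list, whether called or not.

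Matrix genes are given by list. Of 9 tested fibrillar collagens, 2 were higher and 0 lower. Col1a1, a chain of the most abundant collagen, had 931, 908, 765, 667 and 849 CPM in Ad-TGFβ1 lungs, against 529, 586, 798, 742 and 790 CPM in empty vector lungs. These groups overlapped, and the log2 fold change of 0.26 ± 0.13 did not pass the test (adjusted p = 0.15). Col3a1, which forms thinner fibrils beside it, had 1310, 1310, 1150, 961 and 1110 CPM in Ad-TGFβ1 lungs, against 765, 714, 961, 903 and 863 CPM in empty vector lungs (log2 fold change 0.47 ± 0.11, adjusted p = 0.0051). Col5a2, which sets fibril width, rose by 0.73 ± 0.11 (adjusted p = 0.000348).

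Of 25 other collagens, 11 were higher and 6 lower, and 3 were lower without Ad-TGFβ1 library 2 or without empty vector library 5. Col4a1 and Col4a2, the paired chains of basement membrane collagen, each rose by 0.84 ± 0.13 on the log2 scale, with adjusted p-values of 0.000635 and 0.000648. Col4a1 had 1310 to 1610 CPM in Ad-TGFβ1 lungs and 681 to 1180 CPM in empty vector lungs, where the highest value was that of library 1. Col12a1, a collagen that lies on fibril surfaces, averaged 158 ± 10.0 CPM in Ad-TGFβ1 lungs and 78.6 ± 27.4 CPM in empty vector lungs (log2 fold change 1.00 ± 0.16, adjusted p = 0.00067). Col8a2, a short-chain collagen, was lower, with 14.8 to 23.5 CPM in Ad-TGFβ1 lungs and 21.1 to 57.7 CPM in empty vector lungs (log2 fold change -1.13 ± 0.21, adjusted p = 0.00128). Col4a6, a further basement membrane chain named after its values were seen, was lower too (-0.62 ± 0.14, adjusted p = 0.00454).

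Of 26 collagen-modifying enzymes, 16 were higher and 0 lower, with a median log2 fold change of 0.34. P4ha3, a prolyl hydroxylase subunit, had 7.86, 8.75, 5.67, 4.86 and 7.93 CPM in Ad-TGFβ1 lungs, against 2.56, 0.941, 2.21, 3.35 and 1.84 CPM in empty vector lungs. All Ad-TGFβ1 values lay above all empty vector values, and the log2 fold change was 1.68 ± 0.25 (adjusted p = 0.00041). Loxl1, a cross-linking oxidase that acts on elastin, rose by 0.70 ± 0.097 (adjusted p = 0.000238). Plod2, a lysyl hydroxylase that prepares stable cross-links, rose by 0.88 ± 0.16 (adjusted p = 0.00125). Colgalt1, which adds galactose to collagen, rose by 0.39 ± 0.046 (adjusted p = 6.30e-05), and the procollagen protease Adamts2 by 0.69 ± 0.12 (adjusted p = 0.00102).

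Of 36 matrix glycoproteins and elastic fibre genes, 17 were higher and 2 lower, with a median log2 fold change of 0.46, and 4 were lower without empty vector library 1. Eln, which encodes elastin, had 1230, 1450, 1360, 814 and 1430 CPM in Ad-TGFβ1 lungs, against 310, 325, 403, 469 and 527 CPM in empty vector lungs. Its lowest Ad-TGFβ1 value, again that of library 4, was above the highest empty vector value, and the log2 fold change was 1.63 ± 0.23 (adjusted p = 0.000232). Mfap5, a microfibril protein, averaged 60.7 ± 14.2 CPM in Ad-TGFβ1 lungs and 25.9 ± 1.61 CPM in empty vector lungs (log2 fold change 1.23 ± 0.14, adjusted p = 2.88e-05). Ccn4, a matricellular protein, averaged 22.3 ± 5.51 CPM in Ad-TGFβ1 lungs and 7.02 ± 0.528 CPM in empty vector lungs (log2 fold change 1.67 ± 0.21, adjusted p = 0.000124). Its relative Ccn5 rose by 1.41 ± 0.19 (adjusted p = 0.000209), and the collagen-binding Sparc by 0.99 ± 0.14 (adjusted p = 0.000246).

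Fn1, which encodes fibronectin, showed how much empty vector library 1 could weigh. It had 1010, 1030, 763, 722 and 879 CPM in Ad-TGFβ1 lungs, against 871, 398, 353, 360 and 341 CPM in empty vector lungs. Only library 1 of the empty vector group lay within the range of the Ad-TGFβ1 group. The log2 fold change was 0.93 ± 0.21 with that library (adjusted p = 0.00432) and 1.28 without it.

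Of 11 laminins, the cross-shaped chains of basement membranes, 8 were higher and 0 lower. Lamb3, which belongs to the epithelial laminin of hemidesmosomes, rose by 1.25 ± 0.20 (adjusted p = 0.000635). Among 16 proteoglycans, 3 were higher and 2 lower, with 1 higher without Ad-TGFβ1 library 1 and 6 without empty vector library 1. The lower count was 1 without Ad-TGFβ1 library 1, 3 or 4 or empty vector library 2, 3 or 4. Bgn, which encodes biglycan, had 1310, 1290, 920, 956 and 1050 CPM in Ad-TGFβ1 lungs, against 702, 441, 515, 552 and 496 CPM in empty vector lungs (log2 fold change 1.03 ± 0.12, adjusted p = 5.45e-05). Dcn, which encodes the related decorin, moved the other way, with 105 to 136 CPM in Ad-TGFβ1 lungs and 137 to 204 CPM in empty vector lungs (log2 fold change -0.45 ± 0.15, adjusted p = 0.0346). Dcn lost the call when Ad-TGFβ1 library 1, 3 or 4 or empty vector library 2, 3 or 4 was left out, with values of -0.33 to -0.46.

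Of 27 matrix proteases, 8 were higher and 2 lower. Mmp2, a gelatinase of fibroblasts, had 335, 313, 230, 203 and 262 CPM in Ad-TGFβ1 lungs, against 103, 101, 134, 137 and 101 CPM in empty vector lungs (log2 fold change 1.22 ± 0.15, adjusted p = 6.44e-05). Mmp12, the macrophage elastase, averaged 15.5 ± 3.90 CPM in Ad-TGFβ1 lungs and 3.27 ± 1.40 CPM in empty vector lungs (log2 fold change 2.24 ± 0.28, adjusted p = 0.000127). Mmp13, a collagenase, averaged 2.88 ± 0.702 CPM in Ad-TGFβ1 lungs and 0.464 ± 0.289 CPM in empty vector lungs (log2 fold change 2.61 ± 0.38, adjusted p = 0.000363). Timp1, an inhibitor of these enzymes, had 15.2, 12.4, 10.6, 6.84 and 10.3 CPM in Ad-TGFβ1 lungs, against 5.63, 3.66, 7.38, 5.98 and 6.75 CPM in empty vector lungs. The Timp1 groups overlapped at Ad-TGFβ1 library 4, and the log2 fold change was 0.91 ± 0.21 (adjusted p = 0.00386).

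**Figure D2:**
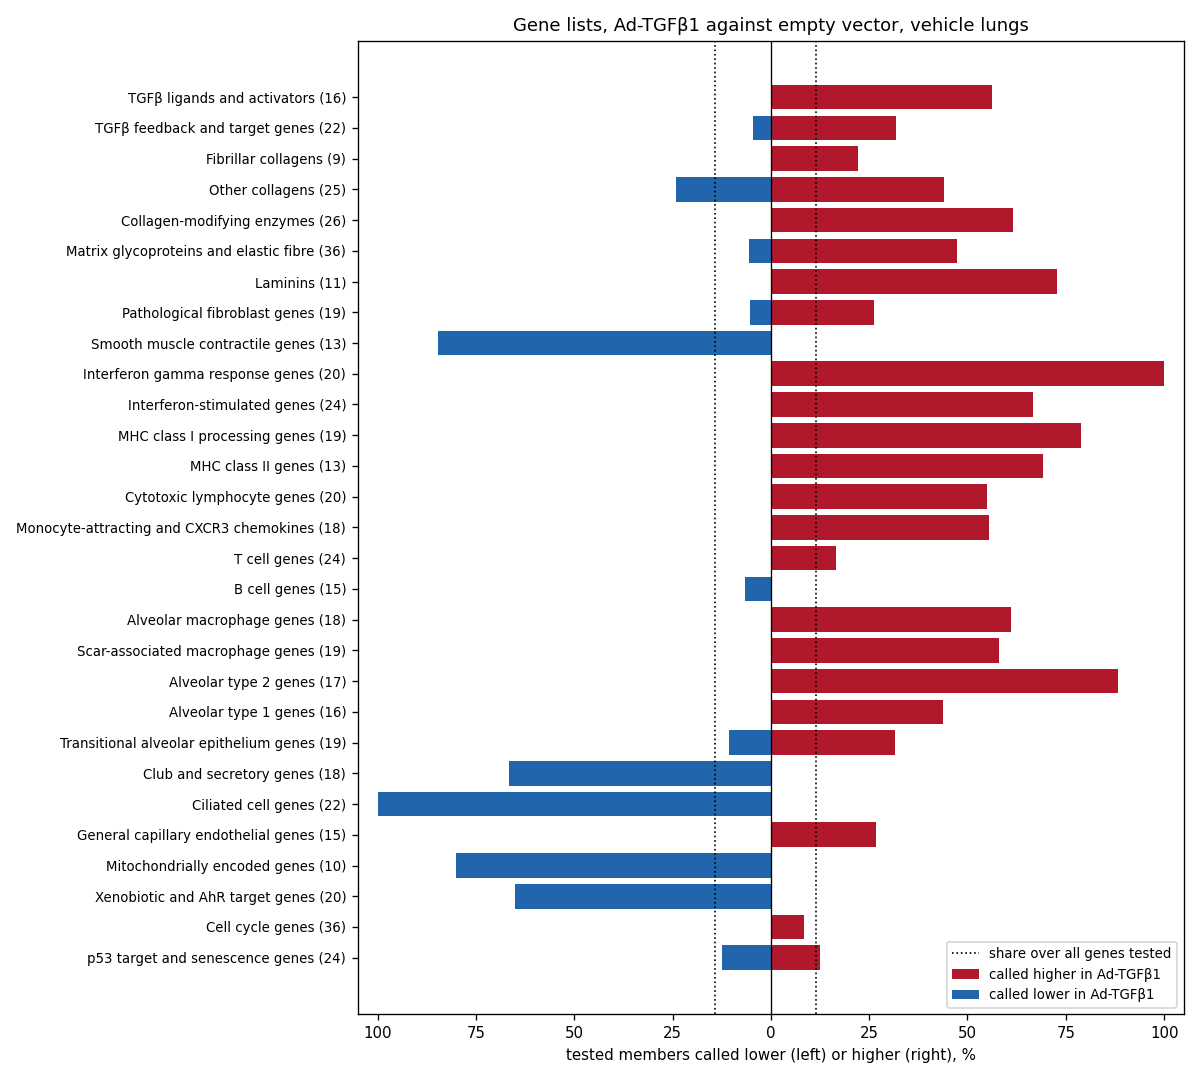
Share of the tested members of 29 gene lists that were called lower (left) or higher (right) in Ad-TGFβ1 lungs than in empty vector lungs, in percent, with the number tested in brackets. Dotted lines mark the shares over all genes tested, 14.3% lower and 11.5% higher. All 20 interferon gamma response genes were higher and all 22 ciliated cell genes were lower, while 2 of 9 fibrillar collagens were higher.

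Genes that mark disease-associated fibroblasts were called in part, 31.6% of them against 25.8% of all genes tested. Of 19 tested pathological fibroblast genes, 5 were higher and 1 lower, with a median log2 fold change of 0.12, and 3 were higher without empty vector library 3, 4 or 5. Ltbp2, described above, was among the higher ones. The sums over the list, Ltbp2 included, were 1080 to 1490 CPM in Ad-TGFβ1 lungs and 747 to 995 CPM in empty vector lungs. Cthrc1, a marker of collagen-producing fibroblasts in fibrotic lungs, had 1.95, 2.04, 1.48, 1.88 and 1.66 CPM in Ad-TGFβ1 lungs, against 2.56, 1.99, 1.36, 1.22 and 2.25 CPM in empty vector lungs. The groups overlapped throughout (log2 fold change -0.06 ± 0.20, adjusted p = 0.863), and the sign of this value turned under 5 of the alternatives tried. Tnc, which encodes tenascin-C, rose by 1.05 ± 0.16 (adjusted p = 0.00041). Postn, which encodes periostin, had 313, 280, 207, 321 and 257 CPM in Ad-TGFβ1 lungs, against 300, 175, 120, 133 and 110 CPM in empty vector lungs. It rose by 0.72 ± 0.21 (adjusted p = 0.0192), and by 1.04 without empty vector library 1, but did not pass the test when Ad-TGFβ1 library 1 or empty vector library 3, 4 or 5 was left out (0.60 to 0.66).

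Most smooth muscle contractile genes were lower in Ad-TGFβ1 lungs, but the count rests on single libraries. Of 13 tested smooth muscle contractile genes, 11 were lower and 0 higher, with a median log2 fold change of -0.74. Acta2, the smooth muscle actin that is also used as a myofibroblast marker, had 151, 124, 94.6, 128 and 196 CPM in Ad-TGFβ1 lungs, against 143, 198, 303, 364 and 319 CPM in empty vector lungs. Empty vector library 1 was the 1 library that lay within the Ad-TGFβ1 range, and the log2 fold change was -0.93 ± 0.25 (adjusted p = 0.0104). Tagln, an actin-binding protein of smooth muscle, had 59.4 to 105 CPM in Ad-TGFβ1 lungs and 90.0 to 182 CPM in empty vector lungs (log2 fold change -0.85 ± 0.21, adjusted p = 0.00574). The count of lower genes depended on single libraries: it was 2 without empty vector library 4, 4 without empty vector library 5 or Ad-TGFβ1 library 3, 5 and 6 without Ad-TGFβ1 libraries 2 and 4 in turn, and 11 without empty vector libraries 1 and 5 together. In the empty vector group library 1 had the lowest sum of the smooth muscle list (1520 CPM) and of the ciliated cell list described below (1680 CPM). In the Ad-TGFβ1 group library 3 had the lowest smooth muscle sum (1060 CPM) and the highest ciliated cell sum (1980 CPM). A part of airway tissue in this result was not tested.

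Of 20 alveolar fibroblast genes, 6 were higher and 2 lower, and 3 were higher and 1 lower without empty vector library 5. Pdgfra, a growth factor receptor of these cells, had 530 to 622 CPM in Ad-TGFβ1 lungs and 273 to 533 CPM in empty vector lungs (log2 fold change 0.61 ± 0.12, adjusted p = 0.00156). Mfap4, a microfibril protein, averaged 308 ± 42.2 CPM in Ad-TGFβ1 lungs and 160 ± 53.4 CPM in empty vector lungs (log2 fold change 0.94 ± 0.19, adjusted p = 0.00169). Of 12 pericyte genes 2 were higher and 0 lower (0 to 5 higher when single libraries were left out), of 15 adventitial fibroblast genes 3 were higher and 4 lower (1 to 3 higher and 1 to 7 lower when single libraries were left out), and of 10 mesothelial genes 0 were higher and 2 lower (1 lower without empty vector library 3).

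Every tested gene of 1 list was higher in Ad-TGFβ1 lungs. It holds Ifng, the gene of interferon gamma, the cytokine of activated T cells and natural killer cells. The other members are genes that cells switch on in response to it. Promoters of such genes are known for palindromes of the form TTCNNNGAA and for repeats of the form GAAANNGAA, which IRF1, a transcription factor that the interferon induces, binds. The promoters of 4 such genes are shown because these motifs, which were chosen after the data were seen, lie side by side in them or just before the start. Each sequence is the 130 bases before the RefSeq start in GRCm38.p6, written 5′ to 3′ on the gene's strand, with TTCNNNGAA and GAAANNGAA in capitals as found on either strand. The motifs can overlap where they share GAA. They are Igtp (chr11:58199426-58199555, plus strand), Irgm2 (chr11:58214847-58214976, plus strand), Tgtp1 (chr11:48992247-48992376, minus strand) and Gbp2 (chr3:142620533-142620662, plus strand).
Igtp: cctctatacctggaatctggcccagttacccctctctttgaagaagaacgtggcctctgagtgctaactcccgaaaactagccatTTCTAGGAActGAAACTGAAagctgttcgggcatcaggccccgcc
Irgm2: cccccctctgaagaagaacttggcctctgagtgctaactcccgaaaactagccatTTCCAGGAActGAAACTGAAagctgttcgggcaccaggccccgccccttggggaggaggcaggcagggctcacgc
Tgtp1: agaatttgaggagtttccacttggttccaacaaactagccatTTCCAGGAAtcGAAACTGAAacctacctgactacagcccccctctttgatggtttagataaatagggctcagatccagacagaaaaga
Gbp2: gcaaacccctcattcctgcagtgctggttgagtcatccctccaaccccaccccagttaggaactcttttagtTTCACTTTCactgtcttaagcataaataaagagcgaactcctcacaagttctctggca
Igtp, Irgm2 and Tgtp1 carry both motifs next to each other, and Gbp2 carries GAAANNGAA on the opposite strand. Among the 13 interferon gamma response genes with a window of 250 bases before to 50 after the start, 11 held GAAANNGAA, against 9.76% of all genes with a window. TTCNNNGAA was in 7 of the 13, against 9.55% of all genes. A match to these letters is a description of the sequence and does not show binding.

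Of 20 interferon gamma response genes, all 20 were higher in Ad-TGFβ1 lungs, with a median log2 fold change of 1.17, and the groups did not overlap in 18. Ifng itself, the cytokine gene, had 23, 19, 7, 12 and 8 reads in Ad-TGFβ1 lungs, against 2, 1, 1, 1 and 1 reads in empty vector lungs. The summed counts of 69 and 6, scaled for library size, gave a ratio of 9.62 (95% interval 4.20 to 27.1, counting error only), and the log2 fold change in the fit was 3.14 ± 0.59 (adjusted p = 0.00127). Cxcl9, which encodes an interferon-induced chemokine that draws in T cells, had 101, 106, 65.1, 53.6 and 79.8 CPM in Ad-TGFβ1 lungs, against 12.7, 5.33, 23.3, 10.5 and 1.64 CPM in empty vector lungs. The Cxcl9 groups were far apart, and the log2 fold change was 2.90 ± 0.47 (adjusted p = 0.00078).

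Cxcl10, a second ligand of the same chemokine receptor, had 43.3, 39.7, 17.7, 20.0 and 33.4 CPM in Ad-TGFβ1 lungs, against 4.96, 2.30, 13.9, 7.30 and 2.35 CPM in empty vector lungs (log2 fold change 2.31 ± 0.45, adjusted p = 0.00152). Gbp2, a guanylate-binding protein that acts against intracellular pathogens, had 244, 203, 169, 165 and 197 CPM in Ad-TGFβ1 lungs, against 79.7, 44.0, 87.7, 59.4 and 34.8 CPM in empty vector lungs (log2 fold change 1.67 ± 0.24, adjusted p = 0.000326). Ido1, which breaks down tryptophan, rose by 1.99 ± 0.38 (adjusted p = 0.00128), and Gbp5, a promoter of inflammasome activity, by 1.54 ± 0.26 (adjusted p = 0.00082). The immunity-related GTPases Igtp, Irgm2 and Tgtp1, chosen for their promoters after their values were seen, had log2 fold changes of 1.39 ± 0.31, 0.98 ± 0.25 and 1.45 ± 0.44 (adjusted p-values 0.00322, 0.00808 and 0.0206). Genes of the Gbp and immunity-related GTPase families are near copies of each other, so the split of reads between members is uncertain.

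Summed over the list, the Interferon gamma response genes had 2450, 2170, 1630, 1740 and 2000 CPM in Ad-TGFβ1 lungs, against 1120, 717, 1330, 949 and 509 CPM in empty vector lungs. The groups did not overlap, and empty vector library 1 lay within its own group here. Without empty vector libraries 1 and 5, 16 of the 20 genes were higher and 0 lower.

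**Figure D3:**
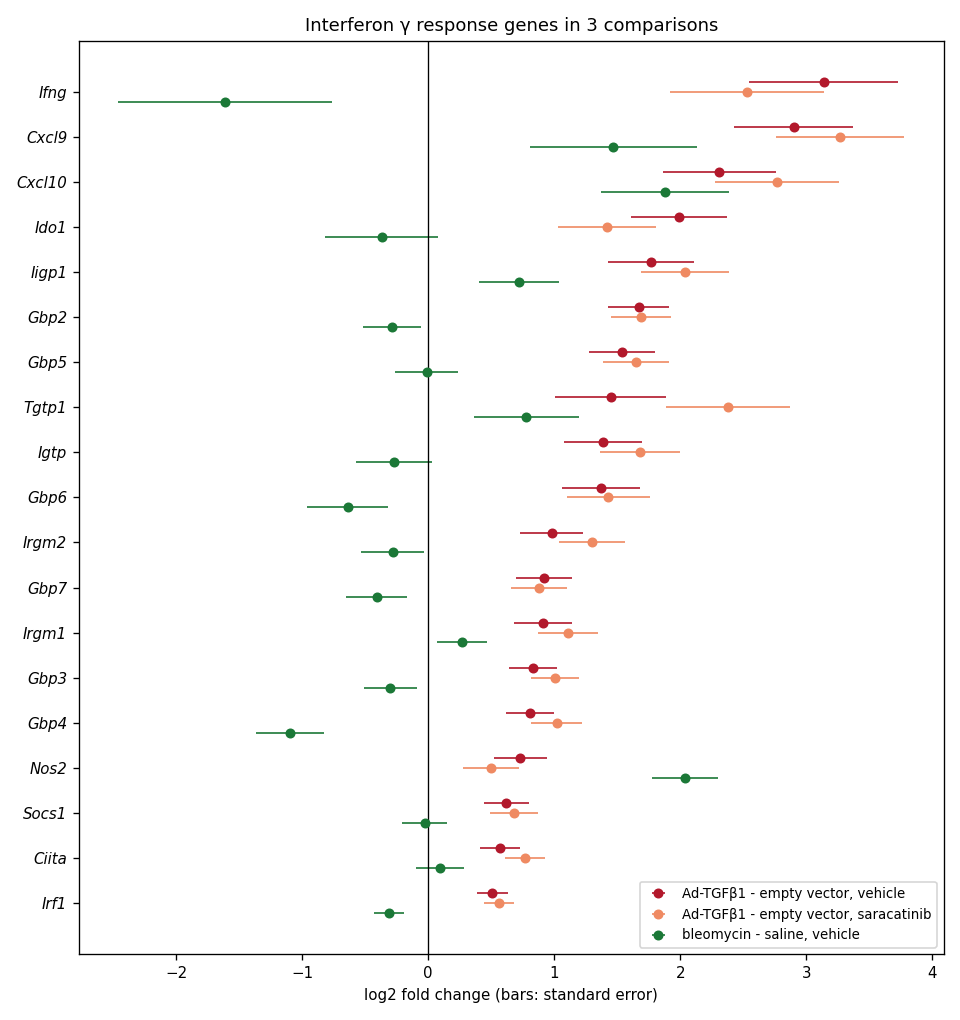
Log2 fold changes with standard errors of 19 of the 20 interferon gamma response genes, for Ad-TGFβ1 against empty vector with vehicle, the same with saracatinib, and bleomycin against saline with vehicle. Cxcl9 had 2.90, 3.27 and 1.47 in these comparisons, and Gbp2 had 1.67, 1.69 and -0.29.

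Cytotoxic lymphocytes are a main source of interferon gamma. Of 20 tested cytotoxic lymphocyte genes, a list that also holds Ifng, 11 were higher and 0 lower, with a median log2 fold change of 0.83. Cd8b1, a chain of the cytotoxic T cell co-receptor, had 6.21, 10.1, 6.89, 8.43 and 8.15 CPM in Ad-TGFβ1 lungs, against 2.98, 1.78, 3.56, 3.24 and 0.920 CPM in empty vector lungs (log2 fold change 1.65 ± 0.28, adjusted p = 0.000839). Xcl1, a chemokine of activated CD8 T cells and natural killer cells, averaged 2.57 ± 0.822 CPM in Ad-TGFβ1 lungs and 0.498 ± 0.368 CPM in empty vector lungs (log2 fold change 2.29 ± 0.41, adjusted p = 0.00107). Klrd1, a natural killer cell receptor chain, rose by 1.07 ± 0.21 (adjusted p = 0.00168), and the granule protein gene Nkg7 by 1.28 ± 0.26 (adjusted p = 0.00194). Of 24 T cell genes, 4 were higher and 0 lower. That count was 7 without empty vector library 3, 2 without Ad-TGFβ1 library 1, 2 or 5 or empty vector library 2 or 5, and 1 without empty vector libraries 1 and 5 together. Of 15 B cell genes 0 were higher and 1 lower, with 0 to 3 lower when single libraries were left out and 3 without empty vector library 1. Of 18 plasma cell genes 0 passed the test, while 2 were higher without empty vector library 1, 1 was higher without empty vector library 3 and 1 was lower without empty vector library 5.

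Antigen presentation genes are induced by interferon gamma in many cells. Of 13 MHC class II genes 9 were higher, and these 9 had groups that did not overlap. Ctss, the protease that trims the invariant chain, had 309, 343, 312, 267 and 296 CPM in Ad-TGFβ1 lungs, against 124, 84.2, 127, 102 and 61.7 CPM in empty vector lungs (log2 fold change 1.61 ± 0.21, adjusted p = 0.000128). Cd74, the invariant chain, had 1390 to 1690 CPM in Ad-TGFβ1 lungs and 501 to 1200 CPM in empty vector lungs (log2 fold change 0.78 ± 0.18, adjusted p = 0.00494). Of 19 MHC class I processing genes, 15 were higher and 0 lower, and 9 were higher without empty vector library 5 or without Ad-TGFβ1 library 1. Tapbp, which loads peptides onto class I molecules, rose by 0.49 ± 0.091 (adjusted p = 0.00125). Of 24 interferon-stimulated genes of the antiviral type 16 were higher and 0 lower, among them Oas3, a sensor of double-stranded RNA, with a log2 fold change of 1.93 ± 0.38 (adjusted p = 0.00161). Of 18 chemokines 10 were higher and 0 lower, and Cxcl14, made by epithelium and fibroblasts, rose by 1.51 ± 0.15 (adjusted p = 1.03e-05). The chemokine list shares members such as Cxcl9 with the interferon gamma response list, so the 2 counts are not separate results.

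Macrophage genes were tested in 3 lists. Of 18 tested alveolar macrophage genes, 11 were higher and 0 lower, with a median log2 fold change of 0.87. Itgax, an integrin of alveolar macrophages and dendritic cells, had 125, 133, 109, 120 and 123 CPM in Ad-TGFβ1 lungs, against 65.2, 60.7, 70.9, 69.5 and 42.1 CPM in empty vector lungs (log2 fold change 0.98 ± 0.14, adjusted p = 0.00021). Ear2, a ribonuclease of these cells, had 25.4 to 32.4 CPM in Ad-TGFβ1 lungs and 5.21 to 22.8 CPM in empty vector lungs (log2 fold change 1.54 ± 0.34, adjusted p = 0.00329). Of 19 scar-associated macrophage genes, 11 were higher and 0 lower. Igf1, a growth factor that macrophages and fibroblasts make, averaged 87.0 ± 20.1 CPM in Ad-TGFβ1 lungs and 35.4 ± 3.07 CPM in empty vector lungs (log2 fold change 1.30 ± 0.17, adjusted p = 0.000163). Of 16 interstitial macrophage genes, 7 were higher and 2 lower, and 1 was lower without Ad-TGFβ1 library 3 or without empty vector library 4 or 5. Pf4, a chemokine of platelets and tissue macrophages that was named after its values were seen, averaged 5.69 ± 1.35 CPM in Ad-TGFβ1 lungs and 10.1 ± 3.63 CPM in empty vector lungs (log2 fold change -0.83 ± 0.23, adjusted p = 0.0133). Spp1, which encodes osteopontin and is a main marker of macrophages in fibrotic lungs, had 49.3, 53.6, 35.6, 41.1 and 44.7 CPM in Ad-TGFβ1 lungs, against 75.9, 31.3, 15.5, 17.1 and 9.71 CPM in empty vector lungs. Empty vector library 1 had the highest Spp1 of all 10, and the log2 fold change was 0.58 ± 0.37 with it (adjusted p = 0.271) and 1.08 without libraries 1 and 5 (adjusted p = 0.00421). These libraries held the highest and lowest Spp1 of their group. Leaving them out, chosen after the data were seen, also narrowed the spread, so the second p does not test the rise.

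Among markers of alternative activation, Chil3 and Retnla went opposite ways. Chil3, a chitinase-like protein of alveolar macrophages, had 290, 301, 265, 373 and 250 CPM in Ad-TGFβ1 lungs, against 238, 85.2, 53.9, 41.5 and 34.8 CPM in empty vector lungs (log2 fold change 1.70 ± 0.47, adjusted p = 0.0124). Empty vector library 1 was far above the other 4, and the log2 fold change of Chil3 was 2.46 without it. Retnla, a secreted protein that interleukin 4 and interleukin 13 induce in macrophages, had 27.7, 30.8, 34.5, 33.9 and 35.9 CPM in Ad-TGFβ1 lungs, against 46.4, 39.9, 143, 79.8 and 59.0 CPM in empty vector lungs. The Retnla groups did not overlap, and its log2 fold change was -1.18 ± 0.26 (adjusted p = 0.00362). Of the 12 genes of this list 6 were higher and 1, Retnla, was lower, and 3 were higher without empty vector library 2.

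Epithelial genes are given from the alveolus to the airway. Of 17 alveolar type 2 genes, 15 were higher and 0 lower, with a median log2 fold change of 0.71. Sftpc, the surfactant protein gene that defines these cells, had 2810, 3290, 3150, 3170 and 2790 CPM in Ad-TGFβ1 lungs, against 2910, 2050, 1360, 1290 and 1350 CPM in empty vector lungs. Empty vector library 1 lay inside the Ad-TGFβ1 range and the other 4 lay below it, and the log2 fold change was 0.76 ± 0.18 (adjusted p = 0.00466) and 1.01 without library 1. Napsa, a protease that matures surfactant proteins, rose by 1.05 ± 0.20 (adjusted p = 0.00125). Of 16 alveolar type 1 genes, 7 were higher and 0 lower. That count was 14 without empty vector library 1, and 4 without empty vector library 3, 4 or 5 or Ad-TGFβ1 library 1. Ager, the receptor that marks these flat cells, had 749, 745, 772, 837 and 689 CPM in Ad-TGFβ1 lungs, against 912, 557, 474, 367 and 456 CPM in empty vector lungs. It did not pass the test with all libraries (log2 fold change 0.46 ± 0.18, adjusted p = 0.0641) and did so without libraries 1 and 5 (0.70, adjusted p = 0.00131). Leaving these out was chosen after the data were seen, and library 1 had the highest Ager of its group.

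Of 19 genes of transitional alveolar epithelium, a state seen in injured lungs, 6 were higher and 2 lower, and 11 were higher without empty vector library 1 and 1 was lower without empty vector library 5. Lcn2, an iron-binding protein of stressed epithelium, had 163, 156, 129, 83.0 and 116 CPM in Ad-TGFβ1 lungs, against 66.3, 24.0, 36.4, 33.6 and 19.2 CPM in empty vector lungs (log2 fold change 1.84 ± 0.28, adjusted p = 0.000518). Cdkn2a, which encodes cell cycle inhibitors linked to senescence, averaged 3.52 ± 1.14 CPM in Ad-TGFβ1 lungs and 0.807 ± 0.360 CPM in empty vector lungs (log2 fold change 2.12 ± 0.34, adjusted p = 0.000671). Krt19, a keratin of airway and transitional cells, was lower, with a log2 fold change of -0.43 ± 0.10 (adjusted p = 0.0051).

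All 22 tested genes of ciliated cells, which sweep mucus along the airway, were lower in Ad-TGFβ1 lungs, with a median log2 fold change of -1.17. Foxj1, the transcription factor that starts the program of motile cilia, had 62.9, 78.7, 97.6, 64.4 and 72.6 CPM in Ad-TGFβ1 lungs, against 106, 116, 152, 207 and 214 CPM in empty vector lungs. The Foxj1 groups did not overlap, with empty vector library 1 nearest to the Ad-TGFβ1 group, and the log2 fold change was -1.08 ± 0.20 (adjusted p = 0.00126). Dnah5, a motor protein of the outer dynein arm, had 149, 183, 249, 155 and 207 CPM in Ad-TGFβ1 lungs, against 217, 439, 420, 520 and 477 CPM in empty vector lungs (log2 fold change -1.14 ± 0.19, adjusted p = 0.000886). Hydin, a protein of the ciliary central pair, fell by 1.30 on the log2 scale (SE 0.23, adjusted p = 0.000916). The groups did not overlap in 4 of the 22 genes.

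Motile cilia genes are also controlled by the RFX transcription factors, which bind the short site GTTNCC, and the promoters of Hydin (chr8:110266847-110266976, plus strand) and Dnah5 (chr15:28203636-28203765, plus strand) are shown for it. As above, each is the 130 bases before the RefSeq start in GRCm38.p6 on the gene's strand, with GTTNCC on either strand in capitals.
Hydin: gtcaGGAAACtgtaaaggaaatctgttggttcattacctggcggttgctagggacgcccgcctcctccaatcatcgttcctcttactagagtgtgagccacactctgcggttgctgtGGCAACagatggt
Dnah5: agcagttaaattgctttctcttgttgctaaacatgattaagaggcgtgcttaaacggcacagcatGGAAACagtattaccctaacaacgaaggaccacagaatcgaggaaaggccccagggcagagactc
This site is common: 15 of 18 ciliated cell genes with a window held it, against 48.8% of all genes with a window. It was chosen after the data were seen.

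The sum of the Ciliated cell genes was 1240, 1410, 1980, 1360 and 1570 CPM in Ad-TGFβ1 lungs, against 1680, 3030, 3240, 3850 and 4100 CPM in empty vector lungs. Empty vector library 1 again lay within the Ad-TGFβ1 range. All 22 genes were lower without library 1, without library 5 and without both. Of 18 club and secretory genes, 12 were lower and 0 higher, with a median of -0.90. Scgb1a1, the secretoglobin of club cells, had 1620, 2030, 2540, 2110 and 2090 CPM in Ad-TGFβ1 lungs, against 2190, 3320, 3380, 4280 and 4870 CPM in empty vector lungs (log2 fold change -0.80 ± 0.19, adjusted p = 0.00538). Cyp2f2, a cytochrome P450 of these cells, had 1130 to 1790 CPM in Ad-TGFβ1 lungs and 1460 to 4050 CPM in empty vector lungs (log2 fold change -1.06 ± 0.22, adjusted p = 0.00197).

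**Figure D4:**
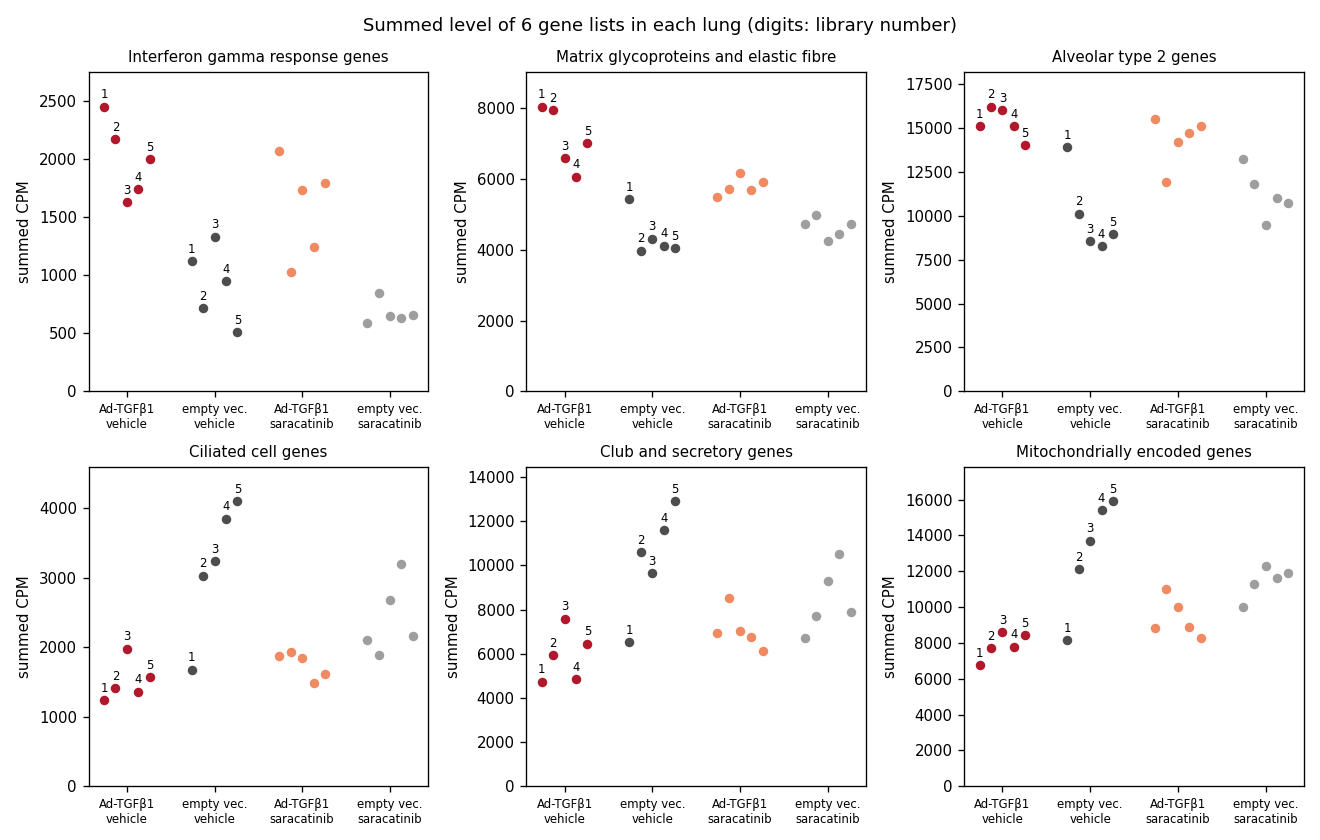
Summed level of 6 gene lists in each lung, in CPM on linear axes from 0, for Ad-TGFβ1 and empty vector lungs given vehicle (library numbers beside the points) and those given saracatinib. Empty vector vehicle library 1 lies within the Ad-TGFβ1 range for ciliated, club and mitochondrial genes and near it for alveolar type 2 genes, while its sum of 1120 CPM over the Interferon gamma response genes lies within the range of its own group.

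Other lists were also mostly lower in Ad-TGFβ1 lungs. Of 10 tested mitochondrially encoded genes, 8 were lower and 0 higher, with sums of 6750 to 8610 CPM in Ad-TGFβ1 lungs and 8160 to 15900 CPM in empty vector lungs, and the lowest empty vector value was that of library 1. Of 20 xenobiotic metabolism and aryl hydrocarbon receptor target genes, many of them made by club cells, 13 were lower and 0 higher, and 7 were lower without empty vector library 5. Gstm1, a glutathione transferase, averaged 153 ± 11.6 CPM in Ad-TGFβ1 lungs and 254 ± 38.4 CPM in empty vector lungs (log2 fold change -0.73 ± 0.13, adjusted p = 0.00106). Whether a different share of airway in the pieces of lung took part in these results was not tested.

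Vessel wall genes depended on empty vector library 1. Of 15 general capillary endothelial genes, 4 were higher and 0 lower. Without empty vector library 1 the count was 12, and it was 1 without empty vector library 3, 4 or 5 and 2 without empty vector library 2 or Ad-TGFβ1 library 1 or 2. Over all genes tested the higher count also moved, from 2173 to 3448 without empty vector library 1. Kit, a receptor of these capillaries, rose by 0.65 ± 0.12 (adjusted p = 0.0014). Of 12 genes of aerocytes, the capillary cells of gas exchange, 1 was higher and 1 lower, and 5 were higher without empty vector library 1. Among 19 arterial and venous genes 4 were higher and 3 lower (1 lower without Ad-TGFβ1 library 1), with Lrg1, a secreted glycoprotein of venules that alters TGFβ signalling, at 57.4 to 87.6 CPM in Ad-TGFβ1 lungs and 23.9 to 48.6 CPM in empty vector lungs (log2 fold change 1.25 ± 0.22, adjusted p = 0.00104). Icam1, a leukocyte adhesion molecule, rose by 0.78 ± 0.15 (adjusted p = 0.00149).

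Growth factor genes went both ways. Of 24 genes of the IGF, PDGF and FGF families, 8 were higher and 6 lower, and 3 and 2 were lower without empty vector libraries 4 and 5 in turn. Igfbp2, an IGF-binding protein of alveolar type 1 cells, had 119, 122, 90.7, 123 and 99.1 CPM in Ad-TGFβ1 lungs, against 73.5, 43.9, 35.2, 28.6 and 36.5 CPM in empty vector lungs (log2 fold change 1.34 ± 0.23, adjusted p = 0.000886). Igf1r, the receptor for IGF1, was lower (log2 fold change -0.49 ± 0.084, adjusted p = 0.000863). Of 23 Wnt pathway genes 3 were higher (0 to 1 without Ad-TGFβ1 library 1, 4 or 5 or without empty vector library 2, 3, 4 or 5) and 6 lower, among them Wnt11, a ligand, and Wif1, a secreted inhibitor, which fell by 1.06 and 1.23 on the log2 scale (adjusted p-values 0.002 and 0.00224). Of 19 genes of the adrenomedullin, endothelin and angiotensin systems, 7 were higher and 3 lower. The higher count was 11 without empty vector library 1 and 3 or 4 without each of the other libraries in turn. Lower was Adm, a vasodilator peptide, with a log2 fold change of -0.94 ± 0.17 (adjusted p = 0.00121).

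Few genes of cell division or damage were called. Of 36 cell cycle genes 3 were higher and 0 lower, but 17 were higher without empty vector library 3. Of 24 p53 target and senescence genes 3 were higher and 3 lower, near the background of 11.5% and 14.3%, with 5 higher without empty vector library 1 or 5 and 1 lower without empty vector library 2 or 3. Of 19 immediate early genes 6 were lower. Nr4a1, a nuclear receptor induced within minutes of a stimulus, had 41.3 to 53.8 CPM in Ad-TGFβ1 lungs and 48.5 to 184 CPM in empty vector lungs (log2 fold change -1.37 ± 0.35, adjusted p = 0.00736).

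By size alone, the 12 largest rises among called genes with at least 1 CPM on average and no overlap were Btnl6, Acod1, Kcng1, Cxcl9, Lrrn1, BC023105, Mmp13, Nrk, Ccl3, Hsd3b2, Cxcl10 and Xcl1. Btnl6, a member of the butyrophilin-like family, had 52, 35, 31, 24 and 29 reads in Ad-TGFβ1 lungs, against 0, 2, 4, 2 and 0 reads in empty vector lungs (log2 fold change 4.05 ± 0.59, adjusted p = 0.000357). Acod1, the macrophage enzyme that makes itaconate, averaged 5.07 ± 1.09 CPM in Ad-TGFβ1 lungs and 0.371 ± 0.322 CPM in empty vector lungs (log2 fold change 3.67 ± 0.67, adjusted p = 0.00114). Kcng1, a modifier subunit of voltage-gated potassium channels, averaged 3.15 ± 0.728 CPM in Ad-TGFβ1 lungs and 0.385 ± 0.207 CPM in empty vector lungs (log2 fold change 3.03 ± 0.32, adjusted p = 2.03e-05). The log2 fold changes of the others lay between 2.29 for Xcl1 and 2.90 for Cxcl9. Only the Ad-TGFβ1 lungs brought Btnl6, Acod1, Kcng1, Lrrn1, Mmp13, Nrk, Ccl3, Hsd3b2 and Xcl1 to a mean of 1 CPM. Their empty vector means lay between 0.15 CPM for Btnl6 and 0.652 CPM for Nrk, so the sizes of these folds rest on values near 0. Ccl3 shares reads with close relatives, and BC023105 is annotated as a processed pseudogene, so both are uncertain.

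The 12 largest falls under the same rule were Ccno, Aspg, Espnl, Fer1l4, Barhl1, Cfap126, Armh1, Snord55, Efcab12, Grip1, Ptpn20 and Fam92b, with log2 fold changes from -1.69 for Ccno to -1.41 for Fam92b. Only the empty vector lungs brought Espnl, Barhl1, Snord55 and Ptpn20 to a mean of 1 CPM. Their Ad-TGFβ1 means were 0.93, 0.731, 0.629 and 0.885 CPM. Ccno, which is needed to multiply the centrioles of ciliated cells, had 0.709, 1.10, 2.01, 1.69 and 0.981 CPM in Ad-TGFβ1 lungs, against 2.73, 2.09, 4.33, 5.68 and 5.73 CPM in empty vector lungs (adjusted p = 0.00362). Cfap126, a protein of the ciliary base, averaged 8.39 ± 1.96 CPM in Ad-TGFβ1 lungs and 23.7 ± 8.98 CPM in empty vector lungs (log2 fold change -1.50 ± 0.27, adjusted p = 0.00109).

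The lungs from mice given saracatinib are 10 further libraries of the same viral pair. In them 485 of 18834 genes (2.58%) differed between Ad-TGFβ1 and empty vector lungs, 417 (2.21%) higher and 68 (0.361%) lower. That count was 793 with DESeq2 and ranged from 181 to 665 when single libraries were left out, with 181 without Ad-TGFβ1 saracatinib library 5. The difference between the vehicle and saracatinib effects was itself tested by an interaction term, which called 0 genes with all 20 libraries by edgeR (1933 at an unadjusted p of 0.05) and 1 by DESeq2. That count depended on empty vector vehicle library 1, without which 1190 genes were called, 532 higher and 658 lower. The sizes and counts below are therefore given side by side. Tgfb1 averaged 160 ± 24.3 CPM in Ad-TGFβ1 lungs with saracatinib and 70.5 ± 10.0 CPM in their empty vector lungs (log2 fold change 1.18 ± 0.15, adjusted p = 0.000516).

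Of the 20 interferon gamma response genes 17 were higher with saracatinib as well, with a median log2 fold change of 1.36 against 1.17 with vehicle. Cxcl9 had a log2 fold change of 3.27 ± 0.51 with saracatinib (adjusted p = 0.00215), and Ltbp2 had 1.33 (adjusted p = 0.000195). Eln was also higher there, at 1.38 (adjusted p = 0.00273). Of the 22 Ciliated cell genes 0 were called with saracatinib, where the median was -0.46 and their sums were 1490 to 1930 CPM in Ad-TGFβ1 lungs and 1890 to 3200 CPM in empty vector lungs. Of the 13 smooth muscle contractile genes 0 were called with saracatinib, with a median of -0.49. Of the MHC class I processing and MHC class II genes, 15 of 19 and 9 of 13 were higher with saracatinib.

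Bleomycin, an agent that breaks DNA and is the usual inducer of lung fibrosis in mice, was given with vehicle to another 5 mice. In the fit of all 40 libraries 8497 of 19529 genes (43.5%) differed from saline, 4527 (23.2%) higher and 3970 (20.3%) lower. The bleomycin pair shares no library with the viral pair, and the difference of the effects was tested in the same fit. It called 2951 genes (15.1%), of which 1264 (6.47%) had the larger value after Ad-TGFβ1 and 1687 (8.64%) after bleomycin. Each model has its own control, empty vector or saline. A difference of effects can therefore also rest on levels that differ between these controls.

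After bleomycin 2 of the 20 interferon gamma response genes were higher and 2 lower, with a median log2 fold change of -0.15, and the difference of effects was called with the larger value after Ad-TGFβ1 in 11 and after bleomycin in 1. Gbp2 had log2 fold changes of 1.67 after Ad-TGFβ1 and -0.29 after bleomycin, a difference of 1.98 (adjusted p = 7.02e-05). Ifng had 3.14 and -1.61, a difference of 4.77 (adjusted p = 0.00252). The exception, named after its values were seen, was Nos2, the inducible nitric oxide synthase, which had 0.73 after Ad-TGFβ1 and 2.04 after bleomycin, a difference of -1.30 (adjusted p = 0.0122). Of the 20 cytotoxic lymphocyte genes, 8 differed with the larger value after Ad-TGFβ1 and 0 the other way. Of the 24 T cell genes 17 were higher after bleomycin, with a median of 0.84, and the difference of effects was called in 5, each with the larger value after bleomycin. MHC class II genes were also higher after bleomycin in 9 of 13, with a median of 0.90. Their difference was called in 2, with the larger value after bleomycin. Chemokines were higher after bleomycin in 8 of 18 (median 1.09), with the difference called in 1 each way. For MHC class I processing genes 6 of 19 were higher and 1 lower after bleomycin, and 5 differed with the larger value after Ad-TGFβ1.

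Of 9 fibrillar collagens 7 were higher after bleomycin, and the difference of effects was called in 7, each with the larger value after bleomycin. Col1a1 had log2 fold changes of 0.26 after Ad-TGFβ1 and 1.74 after bleomycin, a difference of -1.46 (adjusted p = 0.000209). Cthrc1 had -0.06 and 2.80, a difference of -2.84 (adjusted p = 2.87e-06). Timp1 had 0.91 and 3.22, a difference of -2.29 (adjusted p = 0.00147), and Spp1 had 0.58 and 2.98, a difference of -2.39 (adjusted p = 0.00283). Of 19 pathological fibroblast genes, 12 differed this way and 0 the other way.

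Other matrix lists held differences in both directions. The larger value was after Ad-TGFβ1 in 9 and after bleomycin in 10 of 36 matrix glycoproteins and elastic fibre genes, in 5 and 3 of 26 collagen-modifying enzymes, in 4 and 3 of 16 proteoglycans, in 2 and 5 of 25 other collagens, in 1 and 1 of 11 laminins, and in 2 and 8 of 27 matrix proteases. Ccn5 had a log2 fold change of 1.41 after Ad-TGFβ1 and -0.53 after bleomycin, a difference of 1.95 (adjusted p = 1.37e-06). Plod2 had 0.88 and -0.35 (difference 1.25, adjusted p = 0.00276), and Bgn had 1.03 and 0.42 (difference 0.63, adjusted p = 0.0148). For Eln the difference was 0.30 (adjusted p = 0.525) and for Ltbp2 -0.09 (adjusted p = 0.86), and these did not pass the test, which does not show that the effects were alike. Of 20 alveolar fibroblast genes, 15 differed with the larger value after Ad-TGFβ1 and 1 the other way. After bleomycin 2 of them were higher and 17 lower. Pdgfra had 0.61 after Ad-TGFβ1 and -0.75 after bleomycin, a difference of 1.38 (adjusted p = 1.14e-05).

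**Figure D5:**
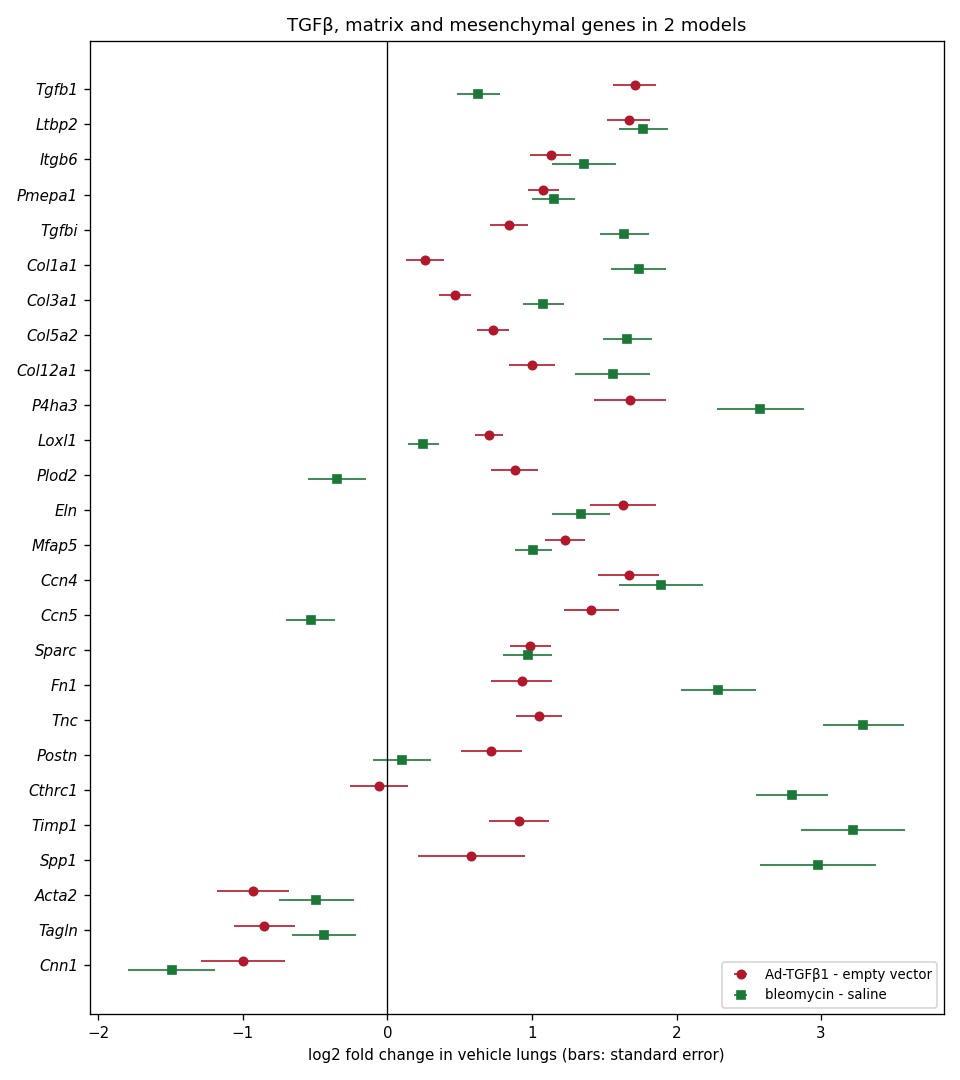
Log2 fold changes with standard errors of 26 TGFβ, matrix and mesenchymal genes, for Ad-TGFβ1 against empty vector and for bleomycin against saline, all with vehicle. Col1a1, Cthrc1, Timp1 and Spp1 lie farther right after bleomycin (1.74, 2.80, 3.22 and 2.98), while Tgfb1, Plod2 and Ccn5 lie farther right after Ad-TGFβ1 (1.71, 0.88 and 1.41).

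Scar-associated macrophage genes differed in 14 of 19 and interstitial macrophage genes in 8 of 16, each with the larger value after bleomycin. Of 18 alveolar macrophage genes 3 had the larger value after Ad-TGFβ1 and 5 after bleomycin, and of 12 alternative activation genes 2 and 3 did. Retnla had a log2 fold change of -1.18 after Ad-TGFβ1 and 2.42 after bleomycin, a difference of -3.58 (adjusted p = 7.81e-06). Of 36 cell cycle genes all 36 were higher after bleomycin, and 20 differed with the larger value after bleomycin. Of 24 p53 target and senescence genes 19 were higher after bleomycin and 12 differed in the same direction. Of 22 ciliated cell genes, 20 were lower after bleomycin, with a median of -1.02, and the difference of effects was called in 1.

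The 5 genes with the largest differences on the Ad-TGFβ1 side were Cyp1a1, Slc7a10, Slc5a12, Bcan and Tmem132d. Their log2 fold changes after Ad-TGFβ1 lay between -0.16 for Slc7a10 and 0.75 for Bcan, and after bleomycin between -5.23 for Cyp1a1 and -2.70 for Bcan. Cyp1a1, a cytochrome P450 induced through the aryl hydrocarbon receptor, had 0.161 to 1.18 CPM after bleomycin and 6.13, 4.91, 5.93, 153 and 3.94 CPM after saline. Saline library 4 alone was far above the others, and without it the difference for Cyp1a1 was 2.39 and did not pass the test (adjusted p = 0.0915), against 5.11 with it. Slc7a10, an amino acid transporter, averaged 22.4 ± 6.37 CPM in Ad-TGFβ1 lungs and 24.9 ± 9.20 CPM in empty vector lungs, and 4.74 ± 3.18 CPM after bleomycin and 86.1 ± 19.7 CPM after saline. The 5 on the bleomycin side were Kng2, Lrrc15, Kng1, Frzb and Thbs4. Of these Kng2 and Thbs4 passed the test with any of the 20 vehicle libraries left out, Lrrc15 and Frzb in 18 of the 20 fits and Kng1 in 5. Lrrc15 lost its call without empty vector library 3 or 5 (highest adjusted p = 0.127), and Frzb without empty vector library 1 or 4 (highest adjusted p = 0.131). Lrrc15 averaged 0.0823 CPM in Ad-TGFβ1 lungs and 0.113 CPM in empty vector lungs, and Frzb 0.283 and 0.12 CPM. After bleomycin they averaged 5.59 and 5.78 CPM, and only the bleomycin lungs brought them to a mean of 1 CPM. Kng2 averaged 5.29 CPM in Ad-TGFβ1 lungs and 4.85 CPM in empty vector lungs. It averaged 19.3 CPM after bleomycin and 0.271 CPM after saline, so its controls differed as well. Thbs4, a thrombospondin of the matrix, averaged 0.764 ± 0.384 CPM in Ad-TGFβ1 lungs and 0.446 ± 0.337 CPM in empty vector lungs, and 36.1 ± 13.6 CPM after bleomycin and 0.494 ± 0.314 CPM after saline (difference -5.41 ± 1.10, adjusted p = 0.000807). As with Lrrc15 and Frzb, only the bleomycin lungs brought Thbs4 to a mean of 1 CPM. Kng1 was at 0 in all 5 saline lungs and averaged 0.121 CPM after bleomycin, so no fold is given for it. It averaged 1.35 CPM in Ad-TGFβ1 lungs and 4.82 CPM in empty vector lungs. Only these viral lungs brought it to the mean of at least 1 CPM asked of these genes, and its bleomycin side rests on values near 0.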

How the data were processed

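Left lung RNA of 40 mice in 8 groups of 5 was sequenced with a stranded kit after ribosomal depletion, per the labels' protocols. The submitters' processing notes name STAR 2.6.1d, Picard, featureCounts of Subread 1.6.3 and edgeR, and the builds mm9 and GRCm38 with no role given. No label names the strand setting, so overlapping and antisense genes and near copies are uncertain. The authors deposited raw read counts for 55536 genes in every library, and these counts were used. Gene names and coordinates come from GENCODE M21 (GRCm38), and all 55536 identifiers matched.

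Genes were filtered with filterByExpr, scaled by TMM and tested with edgeR 4.0.16 (quasi-likelihood test, R 4.3.3) with 1 coefficient per group. The 20 adenoviral libraries were fitted together, and all 40 for the difference from bleomycin. Calls were made at a Benjamini-Hochberg adjusted p of 0.05, taken over every gene in the fit. Standard errors are the log2 fold change divided by the root of F. CPM are counts scaled to the TMM-adjusted library size. Scripts were tested on simulated data. Alternatives used DESeq2 1.42.0, limma 3.58.1 (voom with quality weights), other filters and scaling, the compared groups alone, and each library left out.

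Named are Tgfb1, the 12 largest called rises and falls without overlap at a mean of at least 1 CPM, up to 5 called members of each list by p, 12 further fibrosis and lung genes, the 5 largest differences from bleomycin each way, and the markers. Some genes that this rule names are not reported here. Predicted genes and receptor segments were left out of the largest changes. The members and the 65 gene lists were chosen with earlier results of these data known. Some genes stand in more than 1 list, such as Itgb6, Mmp12 and Igfbp2. Promoters are from RefSeq (GRCm38.p6), and the SMAD, AP-1 and TATA motifs were joined by TTCNNNGAA, GAAANNGAA and GTTNCC after the data were seen. Titles carry animal numbers, and p-values measure the spread between these samples. Over 40 pairs of libraries within a group of the adenoviral model, chi-square per degree of freedom was 5.63 to 47.6, so none of these 20 libraries was counted as a duplicate. The bleomycin and saline libraries were not checked in this way.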

Additional observations from a re-analysis of the deposited data

Results flagged for a closer look

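The 258 named genes looked at give 516 groups of 5 values. In 35 of these groups 1 library lay far from the other 4, measured as the gap to the nearest library divided by the whole range, with a critical value of 0.71 for 5 libraries. Chance alone picks out about 1 in 20 groups, and 23 of the 35 came from empty vector library 1.

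In 21 genes empty vector library 1 was the highest of its group. These were Fn1 (0.892), Timp3 (0.874), Bhlhe40 (0.856), Plin2 (0.847), Ptgs1 (0.814), Fgf2 (0.806), Il33 (0.797), Sema3c (0.79), Col4a1 (0.78), Sparc (0.765), Hspg2 (0.764), Lamc1 (0.757), Chil3 (0.752), Ifng (0.749), Plvap (0.747), Col4a2 (0.746), Lrg1 (0.729), Cd93 (0.724), Sftpa1 (0.724), Ddah1 (0.714) and Tgfbr2 (0.712). For Ifng this gap is 2 reads against 1. In Id4 (0.753) and Bmpr1b (0.72) it was the lowest. Empty vector library 5 was highest for Wnt4 (0.779).

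In the Ad-TGFβ1 group, library 5 was highest for Klrd1 (0.838), Tpm2 (0.727) and Cnn1 (0.724), library 3 for Hp (0.852), Por (0.829), Gabrp (0.746) and Cyp2s1 (0.727), and library 2 for Colgalt1 (0.75) and Clec3b (0.735). Library 4 was highest for Cd93 (0.81) and lowest for Oas3 (0.798). No test of a cause was made for these libraries.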

How the results depend on the processing

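The vehicle comparison kept its count within 1.5 times of 4865 under every alternative run, from 3336 genes with the compared groups alone to 7183 with limma voom, and from 3314 to 7127 when single libraries were left out (without empty vector libraries 5 and 1 in turn). Scaling by size factors gave 4840, DESeq2 5224, no filter 3915, and leaving out empty vector libraries 1 and 5 gave 5905. The saracatinib count of 485 was 793 with DESeq2 and ranged from 181 (without Ad-TGFβ1 saracatinib library 5) to 665. It also moved by over 1.5 times without Ad-TGFβ1 saracatinib library 1 or 3 (203 and 182) and without empty vector saracatinib library 3, 4 or 5 (217, 228 and 243). The interaction count of 0 was 1 with DESeq2 and ranged from 0 to 1190 (without empty vector vehicle library 1), with 1 without empty vector saracatinib library 4. The cause was not tested. The difference from bleomycin ranged from 2245 to 3849 around 2951 when single libraries were left out. No paired analysis was possible because the groups compared share no replicate numbers in the labels.

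Of 4367 values of called named genes under alternatives, 4088 kept their call and 279 lost it, and none changed sign. The sign turned for Cthrc1, which was not called (-0.06): it was 0.23 with limma voom, 0.25 without empty vector libraries 1 and 5 together, and it ranged from -0.17 (without empty vector library 3) to 0.10 (without empty vector library 1) when single libraries were left out, with 0.0086 without Ad-TGFβ1 library 3 and 0.013 without empty vector library 5. The cause was not tested. Of 2210 counts over the gene lists under alternatives, 305 moved by over 1.5 times. The libraries held 9289156 to 17256245 counts.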

Other observations

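Complement genes were partly higher in Ad-TGFβ1 lungs. Of 19 tested complement genes, 10 were higher and 0 lower, and 6 were higher without empty vector library 5. C5ar1, the receptor for the anaphylatoxin C5a, had 16.4, 20.8, 19.5, 15.0 and 17.0 CPM in Ad-TGFβ1 lungs, against 12.7, 8.78, 8.66, 10.6 and 10.0 CPM in empty vector lungs (log2 fold change 0.80 ± 0.18, adjusted p = 0.00365, edgeR). These groups did not overlap. Of 13 monocyte genes 8 were higher and 1 lower, and 5 were higher without Ad-TGFβ1 library 5 or without empty vector library 5. Ccr2, the chemokine receptor that brings monocytes into tissue, rose by 0.63 ± 0.15 (adjusted p = 0.00555). Of 22 hypoxia and glycolysis genes 7 were higher and 4 lower. Pfkfb3, an activator of glycolysis, rose by 0.60 ± 0.11 (adjusted p = 0.00131), while the glucose transporter Slc2a1 had a log2 fold change of -0.42 ± 0.095 (adjusted p = 0.00362).

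Abcg1, a cholesterol exporter of macrophages, had 145, 148, 120, 159 and 117 CPM in Ad-TGFβ1 lungs, against 115, 75.8, 64.9, 58.4 and 68.8 CPM in empty vector lungs (log2 fold change 0.84 ± 0.17, adjusted p = 0.00202).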
